A study of Mus musculus with 10 samples.

Results

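The genes described here encode synaptic SNARE proteins and their closest regulators: Stx1a, Snap25, Vamp1 and Vamp2, which are SNAREs of the synapse, Cplx1 and Cplx2, which are complexins, and Napa and Nsf, which take spent SNARE complexes apart. They are a list of gene names whose rule uses no measured value, although it was drawn up with earlier results of these data known, and all 8 were found among the 53700 gene identifiers counted in each library and among the 19268 genes tested. Their counts come from the cerebral cortices of 10 female mice aged 4 months, all carrying the 5XFAD transgenes, human genes with familial Alzheimer's disease mutations driven by the neuronal Thy1 promoter. In the 5 mice labelled 5XFAD;Neu cKO, a Camk2a-Cre transgene removes floxed Idol (Mylip), the ubiquitin ligase that marks lipoprotein receptors for degradation, from forebrain neurons that use the Camk2a promoter, mainly excitatory ones, whereas the 5 mice labelled 5XFAD are Camk2a-cre WT littermates in which Idol is intact. The question put to these genes was whether their mRNA levels in cortex differed between the 2 groups.

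At a synapse, neurotransmitter is released when a vesicle fuses with the plasma membrane. A SNARE on the vesicle, synaptobrevin (VAMP), winds together with syntaxin 1 and SNAP-25 on the plasma membrane into a bundle of helices that pulls the membranes together. Complexins bind the partly assembled bundle and help hold it ready until synaptotagmin senses calcium. After fusion, alpha-SNAP attaches to the bundle and the ATPase NSF unwinds it, so that the single proteins can be used again. Botulinum and tetanus toxins cut these SNAREs, which stops transmitter release, and loss of presynaptic proteins is a well known feature of Alzheimer's disease.

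Several of the genes come in closely related forms, and their sequences show what a count of reads can and cannot separate. Snap25 lies on chromosome 2 (GRCm39, 136533580 to 136624362, plus strand) and makes its main protein forms from alternative versions of exon 5, an upstream version typical of the developing brain and a downstream version typical of the adult brain. The stretch of 105 coding bases that holds every difference between them, coding bases 169 to 273 of the GENCODE vM39 transcripts, is shown for both because the counts sum the forms. Capitals mark the 31 bases that differ, which change 9 of the 206 residues.
Snap25 with the downstream exon 5, chr2:136611982-136612086, plus strand: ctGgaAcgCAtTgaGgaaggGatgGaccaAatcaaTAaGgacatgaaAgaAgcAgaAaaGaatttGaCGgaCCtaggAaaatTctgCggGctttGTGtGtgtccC
Snap25 with the upstream exon 5, chr2:136611668-136611772, plus strand: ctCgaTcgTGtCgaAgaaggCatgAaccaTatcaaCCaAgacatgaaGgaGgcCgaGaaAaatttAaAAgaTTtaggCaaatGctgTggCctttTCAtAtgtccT
The stretch ends 1647 bases before the end of the transcript, and the libraries hold reads from near the 3′ end of transcripts only. A Snap25 count is therefore the sum of both forms, and a shift between them could not be seen here.

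The vesicle SNAREs and the complexins, in contrast, are encoded by separate genes. Vamp1 lies on chromosome 6 (125192340 to 125222927, plus strand) and Vamp2 on chromosome 11 (68979316 to 68983210, plus strand), Cplx1 on chromosome 5 (108666416 to 108697899, minus strand) and Cplx2 on chromosome 13 (54519154 to 54531730, plus strand). The most alike 60 coding bases of each pair are shown because their likeness bears on the ratios given further on, with capitals for the bases that differ, 4 between the Vamp genes and 5 between the complexins. All 4 windows run from exon 2 into exon 3.
Vamp1, coding bases 127 to 186: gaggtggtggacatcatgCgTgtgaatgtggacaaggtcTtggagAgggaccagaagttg
Vamp2, coding bases 121 to 180: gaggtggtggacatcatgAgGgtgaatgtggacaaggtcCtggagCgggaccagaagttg
Cplx1, coding bases 1 to 60: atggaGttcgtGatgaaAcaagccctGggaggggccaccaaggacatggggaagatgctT
Cplx2, coding bases 1 to 60: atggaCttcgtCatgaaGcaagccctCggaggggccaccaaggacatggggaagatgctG
Over their aligned coding bases, Vamp1 and Vamp2 were 77.2% identical and Cplx1 and Cplx2 79.6%. The longest run of bases shared by the transcripts was 18 for the Vamp pair and 32 for the complexins, shorter than a read of 75 bases. For Napa and its paralog Napb the coding identity was 76.3% with a longest shared run of 26 bases. Among all transcripts of the annotation, none of another gene matched 75 bases or more of a transcript of Stx1a, Snap25, Vamp1, Vamp2, Cplx1, Napa or Nsf at 95% identity. Cplx2 had such matches in 133 other genes, all inside bases 957 to 1225 of its 4936-base transcript, a stretch far from the 3′ end. The last exon of Cplx2 also overlaps Gm16248, an antisense transcript with 0 reads in all libraries, and Nsf holds the same-strand pseudogene Gm8738 in its span, with 92 reads in all.

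Reads on genes numbered from 4320504 to 7466192 per library, and the 8 genes together took 0.194% to 0.260% of them, 134773 reads in all. Levels are given as CPM, the reads of a gene scaled to a common library size after TMM normalization. Mylip itself was at 9.32 to 14.7 CPM in 5XFAD and at 7.18 to 19.4 CPM, so not lower, in the libraries that carry the 5XFAD;Neu cKO label (log2 fold change 0.39 ± 0.25 SE, adjusted p = 0.777, edgeR), and 3′ tags from tissue in which other cells keep the gene cannot check a deletion that may lie elsewhere in it. Neuron markers were high in every library, with summed levels of 5206 to 5970 CPM in 5XFAD and 4857 to 5433 CPM in 5XFAD;Neu cKO, as in cortex. The 5XFAD replicates 2 and 5 stood apart from the other libraries: their mean correlation of log2 CPM with the other 9 was 0.947 and 0.953, against 0.958 to 0.963 elsewhere, and their totals were the smallest at 4693831 and 4320504 reads. For the 8 genes the plot of fold changes gives every value with and without them, and the text gives both for all but Vamp1, whose log2 fold change was 0.04 either way. In bulk tissue, fewer cells of a type and less RNA per cell cannot be told apart.

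The 8 genes spanned a wide range of levels, and all were well counted. Because each transcript gives tags near its 3′ end whatever its length, CPM was not divided by length. The order of genes below is an order of tag counts, and whether tags of different genes were captured equally was not tested. Snap25 was the highest with a mean of 821 CPM over the 10 libraries, rank 59 of 19268 genes, followed by Nsf (396 CPM), Cplx2 (385 CPM), Cplx1 (357 CPM), Vamp2 (145 CPM), Stx1a (86.0 CPM), Napa (82.8 CPM) and Vamp1 (37.1 CPM, rank 4046). Snap25 was above Nsf, Cplx1 above Vamp2, Vamp2 above Stx1a, and Napa above Vamp1 in 10 of 10 libraries, with ranges that did not overlap. Nsf and Cplx2 overlapped (Nsf higher in 8 of 10 libraries), as did Cplx2 and Cplx1 (Cplx2 higher in 8 of 10) and Stx1a and Napa (Stx1a higher in 6 of 10), so that the order within each of these pairs was not clear. The lowest count of any of the genes in any library was 147 reads, for Vamp1.

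None of the 8 genes differed between the groups past the threshold of an adjusted p of 0.05 (edgeR's quasi-likelihood test, Benjamini-Hochberg over all genes). The same test called 0.218% of the 19268 genes, 11 higher and 31 lower in 5XFAD;Neu cKO. DESeq2 also called 0 of the 8, against 1.25% of the 5820 genes it gave an adjusted p. At an unadjusted p under 0.05 there was 1, Snap25, where 7.95% of all genes passed, and 0 of the 8 had groups that did not overlap, against 1.30% of all genes. On the log2 scale 5 genes were higher and 3 lower in 5XFAD;Neu cKO, with a median fold change of 0.03 beside -0.00056 over all genes tested. For 6 of the 8 genes, all but Snap25 and Vamp1, the 95% interval of the fold change lay inside 1.25-fold in either direction, so larger changes of these mRNAs fell outside the intervals these libraries gave. Without 5XFAD replicates 2 and 5 the number was again 6, all but Stx1a and Vamp1.

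**Figure D1:**
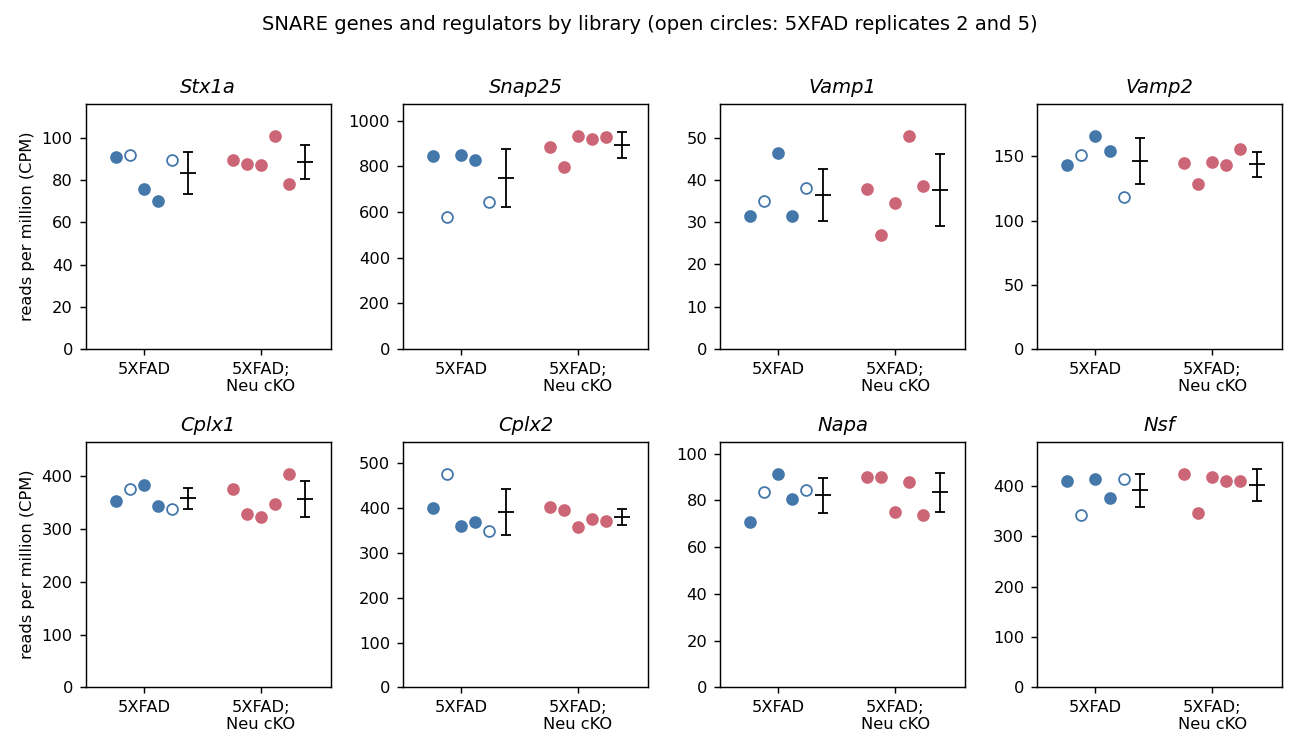
Level of each gene in each library in CPM (y axis from 0) for 5XFAD (blue) and 5XFAD;Neu cKO (red), 5 libraries each, with the mean and SD as black bars. Groups overlap in all 8 panels, and the 2 lowest Snap25 values belong to 5XFAD replicates 2 and 5 (open circles).

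Syntaxin 1A (Stx1a, chromosome 5, 135052139 to 135079963, plus strand) is the plasma membrane SNARE that anchors the bundle at the release site. In 5XFAD replicates 1 to 5 its level was 90.7, 91.7, 75.5, 70.1 and 89.3 CPM. In 5XFAD;Neu cKO replicates 1 to 5 it was 89.4, 87.4, 86.9, 101 and 78.1 CPM. The lowest libraries were 5XFAD replicates 4 and 3 and the highest 5XFAD;Neu cKO replicate 4, but the other 7 libraries mixed between 78.1 and 91.7 CPM. The means were 83.5 ± 9.96 and 88.6 ± 8.17 CPM (SD, n = 5 each). The log2 fold change was 0.09 ± 0.11 SE (95% interval -0.13 to 0.30, adjusted p = 0.936, edgeR), within the spread between libraries, and 0.17 without 5XFAD replicates 2 and 5 (adjusted p = 0.885).

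SNAP-25 lends helices to the bundle from the plasma membrane side. Its gene, Snap25, had the most reads of these genes and was the only one near a difference. In 5XFAD replicates 1 to 5 Snap25 stood at 847, 579, 851, 826 and 642 CPM, from 4369, 2468, 6262, 4432 and 2859 reads. In 5XFAD;Neu cKO replicates 1 to 5 it stood at 886, 796, 934, 919 and 929 CPM. The 4 highest libraries were all 5XFAD;Neu cKO, whereas 5XFAD;Neu cKO replicate 2 lay below 3 of the 5XFAD libraries, and 5XFAD replicates 2 and 5 lay far below all others. The means were 749 ± 129 CPM in 5XFAD and 893 ± 57.0 CPM in 5XFAD;Neu cKO (SD, n = 5 each). The log2 fold change was 0.25 ± 0.08 SE, a 1.19-fold higher level with a 95% interval of 1.06 to 1.34, at an unadjusted p of 0.00299 in edgeR that became an adjusted p of 0.287 over all genes. DESeq2 gave an adjusted p of 0.158. The exact two-sided permutation test of the single gene gave p = 0.0397 (n = 5 each), where the smallest p the design allows is 0.00794.

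The size of this difference depended on 5XFAD replicates 2 and 5. They were the 2 lowest libraries for Snap25, so leaving them out was bound to give a smaller estimate. Without both, which was chosen after seeing the data, the log2 fold change of Snap25 fell to 0.08 (95% interval -0.05 to 0.22, adjusted p = 0.919, edgeR), with 3 libraries left in that arm. Leaving out replicate 2 alone gave 0.17 (adjusted p = 0.654, edgeR) and replicate 5 alone 0.20 (adjusted p = 0.489), while leaving out 5XFAD replicate 3 gave 0.30 (adjusted p = 0.148). Replicates 2 and 5 were the lowest 2 of the 10 libraries for 5.96% of the 8841 genes with a mean of at least 10 CPM, and the highest 2 for 4.07%. Libraries also differed in whether reads fell on the mitochondrial gene mt-Nd3 or on Gm28438, its copy on chromosome 1. Among the libraries with reads mostly on the copy, Snap25 averaged 791 CPM in 4 5XFAD libraries and 796 CPM in the 1 of 5XFAD;Neu cKO. Among those with reads mostly on mt-Nd3, it was 579 CPM in the 1 5XFAD library, replicate 2, and 917 CPM in 4 of 5XFAD;Neu cKO. The type of 5XFAD replicates 2 and 5 was read from only 67 and 80 reads on both genes, against 502 to 1046 in the other libraries. With this type as a covariate, which largely followed group, the log2 fold change was 0.33 (adjusted p = 0.174, edgeR).

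**Figure D2:**
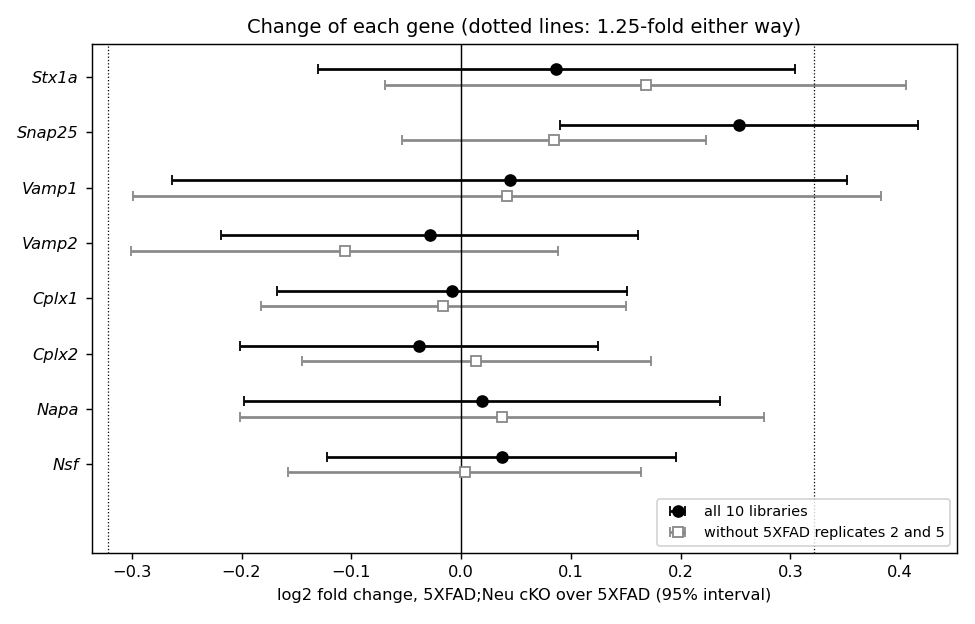
Log2 fold change of each gene, 5XFAD;Neu cKO over 5XFAD, with its 95% interval (x axis), from all 10 libraries (black circles) and without 5XFAD replicates 2 and 5 (grey squares). The Snap25 estimate moves from 0.25 to 0.08, and dotted lines mark a 1.25-fold change either way.

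The vesicle SNAREs were close to level between the groups. Vamp2 encodes synaptobrevin 2, the main vesicle SNARE of forebrain synapses. It was counted at 143, 151, 166, 154 and 118 CPM in 5XFAD replicates 1 to 5 and at 145, 129, 146, 143 and 156 CPM in 5XFAD;Neu cKO replicates 1 to 5. The 5XFAD libraries held both the highest value, in replicate 3, and the lowest, in replicate 5, and the 5XFAD;Neu cKO values lay between them. The log2 fold change was -0.03 ± 0.09 SE (95% interval -0.22 to 0.16, adjusted p = 0.984, edgeR), and -0.11 without 5XFAD replicates 2 and 5 (adjusted p = 0.943).

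Vamp1 encodes synaptobrevin 1, which is known for its place in fast-firing neurons and at the neuromuscular junction. It had the lowest level of the 8 genes and, in 5XFAD;Neu cKO, the widest relative spread. The 5XFAD libraries held 31.4, 35.0, 46.3, 31.5 and 38.2 CPM and the 5XFAD;Neu cKO libraries 38.0, 27.0, 34.5, 50.5 and 38.5 CPM, so both extremes belonged to 5XFAD;Neu cKO, in replicates 2 and 4. Its coefficient of variation was 16.9% in 5XFAD and 22.5% in 5XFAD;Neu cKO. The log2 fold change of 0.04 ± 0.15 SE had a 95% interval of -0.26 to 0.35 (adjusted p = 0.984, edgeR), which reached past a 1.25-fold higher level.

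Complexins differed as little. Cplx1, the complexin prominent in inhibitory neurons, was at 352, 375, 383, 343 and 337 CPM in 5XFAD and at 376, 329, 323, 348 and 404 CPM in 5XFAD;Neu cKO. Its group means of 358 ± 20.1 and 356 ± 33.9 CPM (SD, n = 5 each) were almost equal, with a log2 fold change of -0.01 ± 0.08 SE (95% interval -0.17 to 0.15, adjusted p = 0.994, edgeR) that was -0.016 without 5XFAD replicates 2 and 5. Cplx2, more prominent in excitatory neurons, was at 400, 475, 359, 369 and 349 CPM in 5XFAD and at 402, 395, 358, 374 and 371 CPM in 5XFAD;Neu cKO. The highest Cplx2 value was that of 5XFAD replicate 2, the library with the lowest Snap25, and the other 9 libraries lay between 349 and 402 CPM. The log2 fold change of Cplx2 was -0.04 ± 0.08 SE (95% interval -0.20 to 0.12, adjusted p = 0.971, edgeR), and it was 0.014 without 5XFAD replicates 2 and 5.

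The disassembly genes were also close to level. Napa, on chromosome 7 (15832107 to 15853333, plus strand), encodes alpha-SNAP, the adaptor that brings NSF to the bundle. It was at 70.9, 83.8, 91.3, 80.7 and 84.4 CPM in 5XFAD and at 90.1, 90.1, 75.1, 88.0 and 74.0 CPM in 5XFAD;Neu cKO. Both groups thus spread over the same range, and the log2 fold change was 0.02 ± 0.11 SE (95% interval -0.20 to 0.24, adjusted p = 0.990, edgeR), or 0.038 without 5XFAD replicates 2 and 5. Nsf, on chromosome 11 (103712592 to 103844936, minus strand), encodes the ATPase that drives disassembly. It was at 410, 342, 414, 375 and 413 CPM in 5XFAD and at 423, 345, 418, 409 and 410 CPM in 5XFAD;Neu cKO. In each group replicate 2 was the lowest for Nsf, at 342 and 345 CPM, and the log2 fold change was 0.04 ± 0.08 SE (95% interval -0.12 to 0.20, adjusted p = 0.972, edgeR), or 0.0033 without 5XFAD replicates 2 and 5.

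Read across libraries, the 8 genes did not move as a block. Relative to the mean of all 10 libraries, 5XFAD replicate 2 was lower for Snap25 by a log2 CPM deviation of -0.49 and for Nsf by -0.21, but higher for Cplx2 by 0.31 and within 0.10 for Stx1a, Vamp1, Vamp2, Cplx1 and Napa. In 5XFAD replicate 5, Snap25 (-0.34) and Vamp2 (-0.29) were low while Stx1a (0.06) and Nsf (0.07) were not. Among the other 8 libraries the strongest deviations were those of Vamp1, at -0.43 in replicate 2 and 0.46 in replicate 4 of 5XFAD;Neu cKO.

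**Figure D3:**
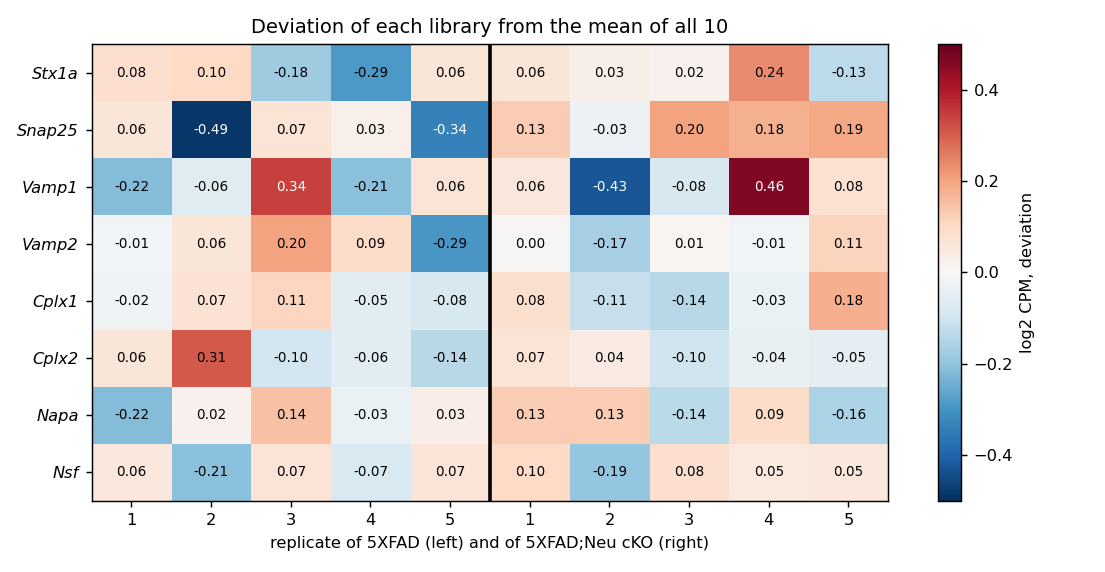
Deviation of log2 CPM from the mean of all 10 libraries for each gene (rows) in each library (columns, replicates 1 to 5 of 5XFAD left of the black line and of 5XFAD;Neu cKO right of it). Red is above and blue below the mean. Snap25 stands out in 5XFAD replicates 2 (-0.49) and 5 (-0.34), and Vamp1 in replicates 2 (-0.43) and 4 (0.46) of 5XFAD;Neu cKO.

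With group means taken out, 18 of the 28 pairs among the 8 genes had a positive Pearson r of log2 CPM over the 10 libraries, given as a description. The highest were Vamp2 with Cplx1 (r = 0.62, Spearman's rho = 0.60) and Snap25 with Nsf (r = 0.60, rho = 0.38), and the lowest was Cplx2 with Nsf (r = -0.63, rho = -0.55). Among the 8841 genes with a mean of at least 10 CPM, those most alike to Snap25 in this sense were Sdhd (r = 0.97), Tmed7 (r = 0.96) and Gnb2 (r = 0.96). Sdhd encodes a membrane anchor of respiratory complex II, Tmed7 a protein of the early secretory pathway and Gnb2 a beta subunit of G proteins. All 3 were low in the same libraries as Snap25: Sdhd was at 3.52 and 8.98 CPM in 5XFAD replicates 2 and 5 and at 17.7 to 35.5 CPM in the other 8. Without the 2 libraries farthest from the median of Snap25, which were those replicates, r was 0.94, 0.88 and 0.88. Gnb2 was itself past the threshold, with a log2 fold change of 0.56 (adjusted p = 0.00636, edgeR). Without 5XFAD replicates 2 and 5 it was not, at 0.33 (interval 0.13 to 0.54, unadjusted p = 0.00183, adjusted p = 0.332, edgeR). Its groups still did not overlap, at 105.5 to 117.4 CPM in the other 5XFAD libraries and 130.2 to 159.8 CPM in 5XFAD;Neu cKO. Sdhd and Tmed7, not past the threshold at 0.66 and 0.38, were at 0.18 and -0.059 without those replicates. The genes were chosen by likeness to Snap25, so smaller estimates without its lowest libraries followed in part from that choice.

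For the other genes the closest were Smim13, Stoml1 and Pbxip1 for Stx1a (r = 0.92 to 0.93), Eef1a2, Il11ra1 and Cyp2j9 for Vamp2 (r = 0.94 to 0.98), and Psmd4, Mfsd14a and Zfp30 for Vamp1 (r = 0.91 to 0.98). They were Chchd7, Cast and Psmd2 for Cplx1 (r = 0.91 to 0.92), Bcas1, Mgll and Rps20 for Cplx2 (r = 0.95 to 0.98), Ptpru, Fcgrt and Slc24a3 for Napa (r = 0.91 to 0.93), and A830018L16Rik, Lrrk2 and Hikeshi for Nsf (r = 0.92 to 0.95). None of the 8 genes was among the 3 closest of another, and by Spearman's rho 6 of the 24 named genes were chosen again, so the choice of these neighbours is loose. The points share depth and library, and being the highest of 8841 values fixes that each r is high.

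Ratios within a library need no scaling between libraries and show whether the balance of related genes moved. Vamp2 was the larger of the vesicle pair throughout, with 0.204 to 0.323 Vamp1 reads for each Vamp2 read in 5XFAD (median 0.232) and 0.210 to 0.353 in 5XFAD;Neu cKO (median 0.247). The complexins were near parity, at 0.788 to 1.07 Cplx1 reads for each Cplx2 read in 5XFAD and 0.833 to 1.09 in 5XFAD;Neu cKO. Ranges overlapped almost entirely for both pairs.

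Napb encodes beta-SNAP, the brain form of the adaptor, and had more reads than Napa. There were 0.128 to 0.164 Napa reads for each Napb read in 5XFAD and 0.127 to 0.176 in 5XFAD;Neu cKO. Group differences of the mean log2 ratio, 5XFAD;Neu cKO minus 5XFAD, were 0.05 for Vamp1 to Vamp2, 0.02 for Cplx1 to Cplx2 and 0.04 for Napa to Napb. Exact two-sided permutation tests gave p = 0.754, 0.825 and 0.730 (n = 5 each), and 0.825 for each after Benjamini-Hochberg adjustment over the 4 ratios tested.

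**Figure D4:**
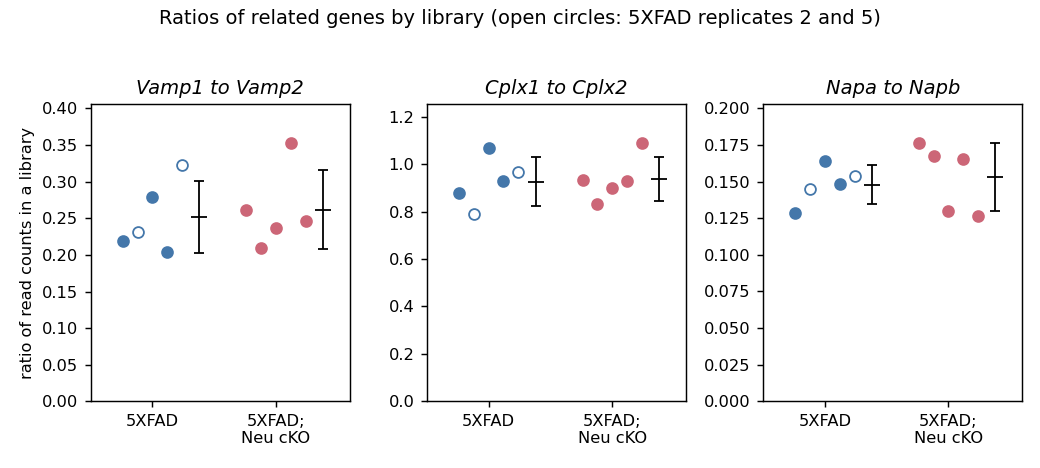
Ratio of read counts of related genes within each library (y axis from 0) for 5XFAD (blue) and 5XFAD;Neu cKO (red), with the mean and SD as black bars and 5XFAD replicates 2 and 5 as open circles. In each of the 3 panels the groups overlap.

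The wider fusion machinery was read from 58 further genes in 7 lists, written with earlier results of these data known, of which 55 could be tested. None was past the threshold in edgeR or in DESeq2, beside 0.218% of all genes, and 6 had an unadjusted p under 0.05, 4 of them higher and 2 lower. That is 6 of 55 genes, where 7.95% of all genes tested passed the same mark. On the log2 scale 31 were higher and 24 lower in 5XFAD;Neu cKO, with a median of 0.04. The median of each list lay between -0.04 for the chaperones of SNAREs and 0.12 for the 2 genes of the disassembly list.

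Among other plasma membrane SNAREs (7 genes, 4 higher), Snap29, used in autophagy and other trafficking, and Stx2, a syntaxin of epithelial and glial cells, had the largest log2 fold changes at 0.28 (adjusted p = 0.853, edgeR) and -0.26 (adjusted p = 0.847). Among vesicle R-SNAREs (6 tested, 3 higher), Vamp3, the widely expressed cellubrevin, was the 1 gene of the 55 whose groups did not overlap, as 1.30% of all genes did not. It was at 20.5 to 28.4 CPM in 5XFAD and at 17.3 to 19.7 CPM in 5XFAD;Neu cKO (log2 fold change -0.38 ± 0.18 SE, adjusted p = 0.594, edgeR). Without 5XFAD replicates 2 and 5 its log2 fold change was -0.23. Sec22b, a SNARE between endoplasmic reticulum and Golgi, was at 27.0 to 37.9 CPM and at 34.0 to 50.9 CPM (log2 fold change 0.30 ± 0.14 SE, adjusted p = 0.606, edgeR).

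Of the 15 endosomal and Golgi SNAREs, 11 were higher. Stx8, a syntaxin of late endosomes, was at a log2 fold change of 0.36 (adjusted p = 0.768, edgeR), and Use1, a SNARE of retrograde transport to the endoplasmic reticulum, stood at -0.22 (adjusted p = 0.702). Among the 13 SM proteins and priming factors (7 higher), Unc13c, the Munc13 form known best from cerebellum, was at 125 to 188 CPM in 5XFAD and at 93.7 to 151 CPM in 5XFAD;Neu cKO (log2 fold change -0.30 ± 0.11 SE, adjusted p = 0.436, edgeR). Doc2b, a calcium sensor of spontaneous release, came to -0.18 on that scale (adjusted p = 0.905), but to -0.039 without 5XFAD replicates 2 and 5 and to -0.082 without 5XFAD replicate 4. Without 5XFAD replicates 2 and 5, Unc13c was at -0.21, Use1 at -0.15 and Stx2 at -0.18. Without 5XFAD replicate 2 alone, Unc13c was at -0.19. Gosr1 (log2 fold change 0.71, adjusted p = 0.614, edgeR) and Stxbp3 (0.60, adjusted p = 0.621) also had an unadjusted p under 0.05 and were named after their values were seen. Both were low, at means of 6.56 and 6.93 CPM in 5XFAD and 10.9 and 10.6 CPM in 5XFAD;Neu cKO. The lowest 5XFAD library of Gosr1 was at 0.70 CPM. Exact two-sided permutation tests gave p = 0.119 for Gosr1, 0.0635 for Stxbp3 and 0.119 for Unc13c. By the same test p was 0.00794 for Vamp3, 0.0397 for Sec22b and, for Napg described below, 0.0238.

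The list of complexins, clamps and inhibitors of assembly (6 tested, 3 higher) also held Snapin, placed there as a protein that binds SNAP-25. Snapin stood at a log2 fold change of 0.26 (adjusted p = 0.824, edgeR) and Stxbp5l, a tomosyn, at 0.17 (adjusted p = 0.865). In the disassembly list Napg, encoding gamma-SNAP, was at 85.3 to 103 CPM in 5XFAD and at 93.7 to 124 CPM in 5XFAD;Neu cKO (log2 fold change 0.25 ± 0.10 SE, adjusted p = 0.465, edgeR), whereas Napb was at 544 to 577 and 511 to 584 CPM (log2 fold change -0.02, adjusted p = 0.986). With all 10 libraries the gamma form lay beside Snap25 in size of estimate, and the alpha and beta forms near 0. Without 5XFAD replicates 2 and 5, Napg was at 0.20 and Snap25 at 0.08. Of the other genes with higher estimates, Sec22b was then at 0.23, Snap29 at 0.25, Snapin at 0.33, Stx8 at 0.43 and Stxbp5l at 0.18. Of the 6 chaperones of SNAREs (2 higher), Sgta, a cochaperone of Hsc70, was at a log2 fold change of -0.06 (adjusted p = 0.973, edgeR).

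**Figure D5:**
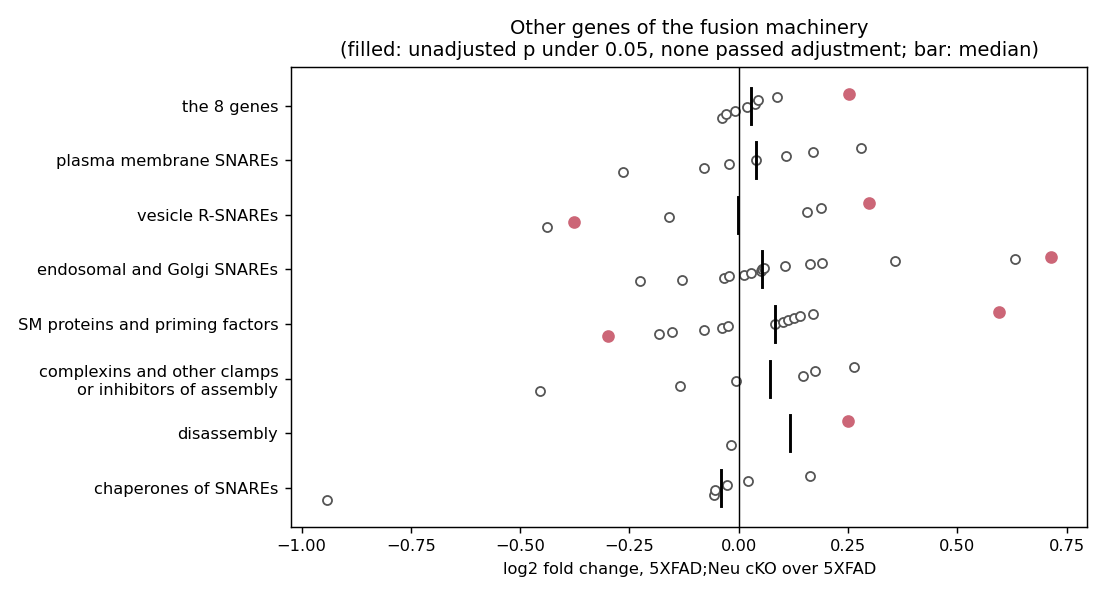
Log2 fold change of each tested gene, 5XFAD;Neu cKO over 5XFAD (x axis), for the 8 genes (top) and the 7 further lists, with the median of each list as a black bar. Filled points have an unadjusted p under 0.05, which Snap25 and 6 further genes had, and none passed adjustment.

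Cell type markers were measured beside these genes, and their part in the Snap25 difference was not tested. No marker of any list was at 0 in every library. The summed level of 7 neuron markers was lower in 5XFAD;Neu cKO (the ranges above, exact two-sided permutation test, p = 0.0397, n = 5 each), with 5 of 7 lower and 0 past the threshold, the direction opposite to that of Snap25. Syt1, its most abundant gene, made up most of this, at means of 3245 and 2827 CPM. Without Syt1, an alternative chosen after seeing the data, the sums were 2208 to 2672 and 2139 to 2380 CPM (exact permutation p = 0.381). Excitatory neuron markers summed to 2146 to 2618 CPM and 2128 to 2443 CPM (4 of 8 lower, permutation p = 0.437), and inhibitory ones to 584 to 702 CPM and 573 to 713 CPM (4 of 8 lower, permutation p = 0.643). Markers of parvalbumin and large projection neurons, cells known for Vamp1 and Cplx1, summed to 700.0 to 821 CPM and 608 to 724 CPM (5 of 6 lower, 1 past the threshold, permutation p = 0.0238), while Vamp1 and Cplx1 had log2 fold changes of 0.04 and -0.01. Microglia markers were lower in all 7 genes, 3 past the threshold, with sums of 288 to 411 CPM and 227 to 259 CPM that did not overlap (permutation p = 0.00794, the smallest possible). Astrocyte markers had 5 of 6 lower with 1 past the threshold (1296 to 1467 and 1188 to 1362 CPM, permutation p = 0.230), and oligodendrocyte markers 6 of 6 lower with 0 past it (1903 to 2793 and 1714 to 2699 CPM, permutation p = 0.127).

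Other lists were oligodendrocyte precursors (2 of 3 lower, permutation p = 0.563), endothelial cells (4 of 4 higher, p = 0.770), striatum (4 of 6 lower, p = 0.881), thalamus and brainstem (2 of 5 lower, p = 0.873) and choroid plexus (3 of 3 higher, p = 0.611), each by the exact permutation test of the summed level and with 0 genes past the threshold. These p-values were not adjusted over the 12 lists.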

How the data were processed

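Cortical RNA of 10 mice was read as 10 libraries, 5 of each group. The authors made QuantSeq 3′ mRNA libraries, trimmed the reads, aligned them with STAR (2.7.3a per the submitters' processing notes) to GRCm39 and counted them with HTSeq, whose version the sources give differently. The deposited values are raw counts per Ensembl gene, without normalization. The strand setting of the counting is not given in the sources used here, so overlapping and antisense genes are uncertain, and the libraries carry no molecular identifiers, so intervals cover counting and library spread only. Reads on no gene (31.3% to 39.9% of the reads kept) stayed out of library sizes and tests.

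Symbols, positions and sequences came from GENCODE vM39 (GRCm39), which gave 52603 of 53700 identifiers a symbol. The transcript used for each gene has a consensus coding sequence. Genes with a total count of 10 or less were removed and the other 19268 compared with edgeR 4.0.16 in R 4.3.3 (TMM, glmQLFit and glmQLFTest, group as the only term, threshold of 0.05 on the Benjamini-Hochberg adjusted p). Intervals of 95% come from the same fit, which borrows variance from other genes (at least 54.3 degrees of freedom for each member). They can therefore be narrower than the spread of a gene between its own libraries would give. Single genes and marker sums were also compared by an exact two-sided permutation test of mean log2 CPM over 252 relabellings, and ratios with 0.5 added to both counts. Likeness used log2 CPM with a prior count of 2. Steps were tested on simulated counts. The libraries are labelled as replicates with no other detail, and no pair within a group agreed within sampling noise (smallest chi-square per degree of freedom 5.87 over 20 pairs).

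The members, a fixed list of names with no measured value in the rule, and the other lists were chosen with earlier results of these data known. Named genes were the 8 members, Mylip, the paralogs in the ratios, in each list the genes past the threshold or otherwise the 2 with the largest fold change at a mean of at least 10 CPM, and the 3 genes most alike to each member. Some genes and 1 ratio that this rule and the tests cover are not reported here. Of the 58 list genes, Vamp7 was not matched, and Prrt2 and Cplx4 had too few reads. Alternatives were DESeq2 1.42.0, its size factors in edgeR, filterByExpr, no filter, a robust fit, mitochondrial genes left out, a replicate block, the mt-Nd3 or copy type as a covariate, a ratio prior of 2, Spearman's rho and each library left out.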

Additional observations from a re-analysis of the deposited data

Results flagged for a closer look

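In 56 groups of 5 libraries, the highest or lowest value was set against the rest by Dixon's criterion, which chance alone meets in about 1 group in 20. Nsf was low in 5XFAD;Neu cKO replicate 2 at 345 CPM, where the other 4 libraries of that group lay between 409 and 423 CPM. Sec22b was low in 5XFAD replicate 2 at 27.0 CPM, against 36.6 to 37.9 CPM in the other 5XFAD libraries. Use1 was high in 5XFAD;Neu cKO replicate 1 at 83.4 CPM, against 51.7 to 56.7 CPM.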

How the results depend on the processing

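The count of all genes past the threshold was 42 and became 73 with DESeq2, 103 with no filter on low counts, 112 with a replicate block, 91 with the mitochondrial DNA type as a covariate, 27 without 5XFAD replicates 2 and 5 (chosen after seeing the data), and 26 (without 5XFAD replicate 2) to 72 (without 5XFAD;Neu cKO replicate 1) with each library left out. Of the 8 genes 0 passed under every alternative but the replicate block, where 1 did, Snap25 (log2 fold change 0.27, edgeR adjusted p = 0.0277). Replicate numbers did not pair the libraries: deviations of same-numbered libraries correlated at -0.08 to 0.05, and 0 of 5 libraries correlated best with their own number. Over the other alternatives the adjusted p of Snap25 ran from 0.137 (no filter) to 0.919. The wider lists kept 0 genes past the threshold throughout. For the ratios, an exact permutation test within 5 numbered pairs cannot reach a p under 0.05. The block could therefore change no call of the ratios.

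With each library left out, the genes whose groups did not overlap numbered 0 to 1, the 1 being Snap25 without 5XFAD;Neu cKO replicate 2. A smaller group separates more easily, and the share of all genes without that library was not counted, so this 1 cannot be judged. Log2 ratio differences with each library left out ranged from -0.058 to 0.15 for Vamp1 to Vamp2, -0.037 to 0.072 for Cplx1 to Cplx2 and -0.014 to 0.11 for Napa to Napb. Signs turned for the mitochondrial DNA type covariate in Vamp1 (-0.12), and without 5XFAD replicates 2 and 5 in Cplx2 (0.014) and the Cplx1 to Cplx2 ratio (-0.033). Log2 fold changes with 1 library left out ran from -0.082 to 0.15 for Vamp1, -0.096 to 0.021 for Vamp2, -0.058 to 0.025 for Cplx1, -0.076 to 0.041 for Cplx2, -0.031 to 0.061 for Napa, -0.0084 to 0.086 for Nsf and -0.042 to 0.0061 for Napb. Those of Stx1a (0.030 to 0.13) and Snap25 (0.17 to 0.30) kept their sign. The cause of these shifts was not tested. Spearman's rho chose 6 of the 24 alike genes again. Each of the 8 genes had 147 reads or more per library, and the standard error was largest for Vamp1, the gene with the fewest reads.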
